A study of Mus musculus with 4 samples.

Results

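The nuclear-encoded genes of the mitochondrial respiratory chain were examined in cultured mouse liver cells. Members were the rows of the table whose gene symbol began with Ndufa, Ndufb, Ndufc, Ndufs, Ndufv, Uqcr, Cox4 to Cox8 or Atp5, or was Sdha, Sdhb, Sdhc, Sdhd, Cyc1 or Cycs. The rule found 94 of 24493 genes and used no measured value. Of these, 76 encode subunits in general use (36 of complex I, 4 of complex II, 9 of complex III, 11 of complex IV, 15 of complex V, and cytochrome c), 8 encode complex IV isoforms that are best known from other tissues, and 10 encode assembly or supercomplex factors. Ndufa4 and its paralog Ndufa4l2 were counted with complex IV, to which the Ndufa4 protein belongs.

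Both groups were cultures of C57BL/6 hepatocyte origin that received no treatment. The Bil_2D group (n = 2) held biliary cells derived from hepatocytes and grown in 2D, and the Hep_3D group (n = 2) held hepatocytes grown in 3D. Each of the clones 15C7 (replicate 1 of both groups) and 19H5 (replicate 2) gave 1 library per group. Culture format changed together with cell state in every library, so their effects cannot be told apart, and each line is 1 clone. The labels name no donor animals, and the p-values reflect only how far these libraries spread, which may be partly technical.

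Expression was given as TPM, the part of a library that falls to a gene per transcript length, and every library had the same total, so the depth behind a value was unknown. Hepatocyte markers summed to 45760 and 46355 TPM in the hepatocytes (replicates 1 and 2) and only to 1686 and 277 in the biliary cells. Biliary markers summed to 5237 and 8340 TPM in the biliary cells against 13129 and 9372 in the hepatocytes, mostly Spp1, and were mixed: Krt19 stood at 752 and 1615 TPM in Bil_2D against 1.12 and 15.9 in Hep_3D, while Epcam was at 2.59 or below in every library. Endothelial markers summed to at most 0.320 TPM (0 of 4 genes reached 1 TPM in any library), and leukocyte markers to 2.70 to 13.5 TPM. Fibroblast markers summed to 1.1 to 3.72 TPM in 3 libraries and to 179.5 TPM in Hep_3D replicate 1, where Dcn alone gave 178.0 TPM, Col1a1 1.17 and Col3a1 0.0139. The part of that signal in the results below was not tested. In bulk RNA, fewer cells of a type and less RNA per cell cannot be told apart.

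The chain is built of complexes I to IV and the ATP synthase, complex V. Complex I (NADH dehydrogenase) and complex II (succinate dehydrogenase) feed electrons to ubiquinone, complex III passes them to cytochrome c, and complex IV hands them to oxygen, while complexes I, III and IV pump protons whose return through complex V drives ATP synthesis. Most subunits are encoded in the nucleus and imported, and they must be matched with a few encoded by mitochondrial DNA. Hepatocytes are rich in mitochondria and rely on the chain for fatty acid oxidation, urea synthesis and glucose production.

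The median gene tested stood at a log2 fold change of -0.73 (Hep_3D minus Bil_2D) on the TPM scale. The same fold changes were therefore also computed after dividing each library by its median-of-ratios size factor (the second scale, given below as median-of-ratios scaling or scaling by size factors), which set the median gene to -0.02. Fold changes are of log2(value + 1), which understates changes of low genes, and calls are limma's moderated test at a Benjamini-Hochberg adjusted p under 0.05 over all 12336 genes tested, with n = 2 per group. With 2 libraries a side, 0.33 is the least p of an exact permutation test.

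Subunit transcripts were abundant in both states. Of the 76 subunit genes, 65 were at 100 TPM or more in every library, and 43 of the 94 members ranked among the 500 most abundant genes. On the TPM scale, complex IV subunits had the highest median level (1056 TPM in Bil_2D and 725 in Hep_3D, as medians over 11 genes of the group means). Complex V followed with medians of 636 and 410 TPM, then complex III with 322 and 251, complex I with 266 and 196, and complex II with 232 and 167. The order of the complexes was the same in both groups. Within complex I the 7 core subunits, which carry the redox centres, had medians of 129 and 114 TPM against 307 and 210 TPM for the 29 supernumerary subunits. The lowest complex I subunit was Ndufa11 (28.8 and 19.7 TPM in Bil_2D and Hep_3D) and the highest Ndufa3 (1206 and 693 TPM), a range of 41.9-fold in Bil_2D and 35.1-fold in Hep_3D. The medians of the assembly factors lay far below those of the subunits, at 19.9 and 11.4 TPM over 10 genes. The 10 ranged from 5.67 to 218 TPM in Bil_2D and from 2.47 to 177 TPM in Hep_3D. Ndufaf5 was the lowest and the supercomplex factor Cox7a2l the highest in both groups.

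Summed over subunit genes, the chain took 4.23% and 3.69% of all TPM in the biliary cells (replicates 1 and 2) against 2.65% and 2.63% in the hepatocytes. The Hep_3D sum was 0.666 times the Bil_2D sum on the TPM scale and 1.18 times after median-of-ratios scaling, so the direction of the whole chain flipped with the scaling. Shares within the chain do not depend on scaling. Complex I held 26.9% and 26.4% of the chain's TPM in Bil_2D and 29.2% and 29.3% in Hep_3D. Complex V held 28.4% and 30.4% in Bil_2D and 25.8% and 27.2% in Hep_3D. The shares of complexes I and V did not overlap between the groups, complex I being larger and complex V smaller in Hep_3D (for groups that do not overlap, the exact two-sided permutation test gives p = 0.33, the smallest possible). Complex II and cytochrome c did not overlap either, with 2.37% and 2.23% against 2.54% and 2.41% for complex II and 0.275% and 0.290% against 0.208% and 0.219% for cytochrome c. Complex IV held 30.7% and 30.0% against 30.0% and 29.6%, and complex III 11.4% and 10.8% against 12.2% and 11.3%, and the groups overlapped in both.

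**Figure D1:**
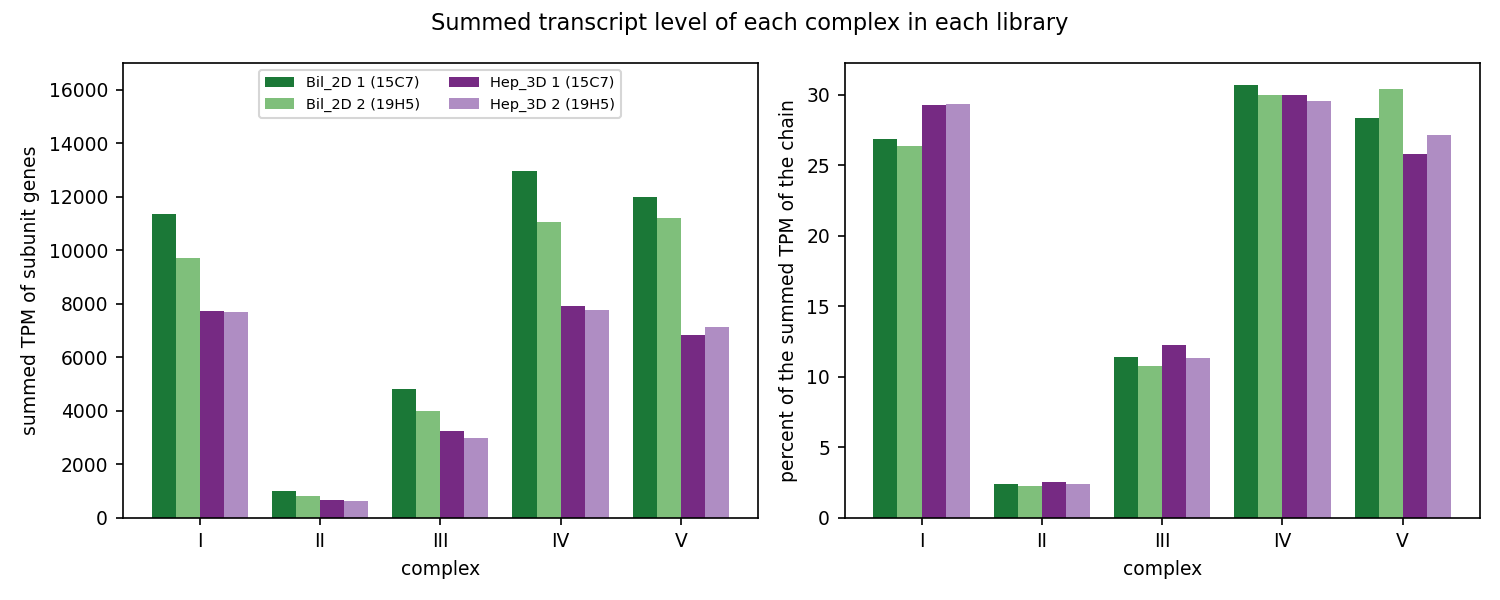
Summed TPM of the subunit genes of each complex (left) and the share of each complex in the summed TPM of the chain in percent (right), 1 bar per library. All 5 sums were lower in both Hep_3D libraries, while the share of complex I was larger (29.2% and 29.3% against 26.9% and 26.4%) and that of complex V smaller.

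Members tested numbered 89, and the rest were under 1 TPM in at least 3 libraries. On the TPM scale 47 members fell and 1 rose in Hep_3D (52.8% and 1.12%), while 51.9% of all genes tested were called lower and 6.80% higher. The share that fell was thus close to that of all genes. The 1 that rose, Cox6a2, was at 0 in both Bil_2D libraries and passed the filter only through Hep_3D, so only a rise could be called. The median log2 fold change of the members was -0.56, against -0.73 for all genes. With size factors applied 6 members rose (6.74%) and 0 fell in limma, against 11.9% and 9.54% of all genes. At an unadjusted p under 0.05 in limma, 23 members were higher and 0 lower on that scale, a count not computed over all genes. The median member stood at 0.25 there, and 74 of 89 (83.1%) were above 0, against 48.6% of all genes. Hep_3D lay above Bil_2D in both libraries for 53 members on that scale (33.6% of all genes did so) and below for 77 on the TPM scale (71.9% of all genes). The calls rested on all 4 libraries. Fewer members fell on the TPM scale with any library dropped, and so did fewer of all genes. The share of members that fell was then below that of all genes in each run. After scaling by size factors, fewer members and fewer of all genes rose with any library dropped. The call of the 1 member that rose on the TPM scale was lost without either Bil_2D replicate. The counts by complex below are parts of these totals, and those by complex and by list stand beside the same shares of all genes. These were 51.9% lower and 6.80% higher on the TPM scale, and 9.54% lower and 11.9% higher with size factors applied.

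**Figure D2:**
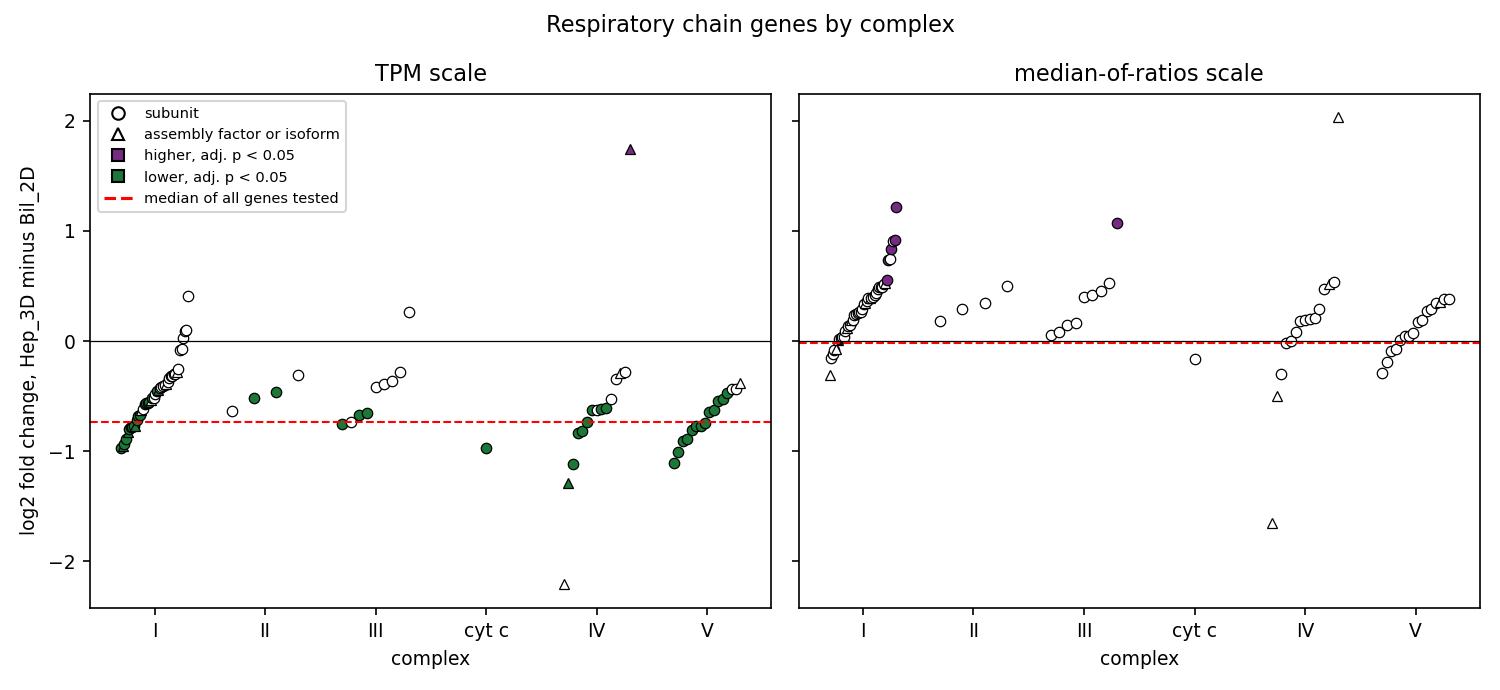
Log2 fold change (Hep_3D minus Bil_2D) of each of the 89 members tested, by complex, on the TPM scale (left) and the median-of-ratios scale (right). Filled symbols passed limma's test (47 lower and 1 higher on the left, 6 higher on the right), triangles are assembly factors and isoforms, and the dashed line is the median of all genes tested (-0.73 and -0.02).

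In complex I, 20 of 44 members fell on the TPM scale and 5 rose after median-of-ratios scaling, with medians of -0.50 and 0.31. The shares were 45.5% and 11.4%, against 51.9% and 11.9% of all genes. Ndufa1, a small membrane-arm subunit needed for assembly of the complex (chromosome X, 37187588 to 37191238), had 401 and 336 TPM in replicates 1 and 2 of the biliary cells, against 485 and 488 in the hepatocytes. Both Hep_3D libraries were above both Bil_2D libraries on either scale. On the TPM scale this went against the run of the subunits, with 2 of 76 in that order (2.63%, against 11.1% of all genes). With size factors applied 47 of 76 were (61.8%, against 33.6% of all genes). Its log2 fold change was 0.41 on the TPM scale (SE 0.15, adjusted p = 0.0720 in limma) and 1.22 with size factors applied (SE 0.14, adjusted p = 0.0130). Ndufa1 made up 3.53% and 3.46% of complex I TPM in Bil_2D and 6.27% and 6.34% in Hep_3D, a comparison that no scaling between libraries can change. Ndufa6, an accessory subunit that holds the mitochondrial acyl carrier protein (chromosome 15, 82350139 to 82354291), had 664 and 450 TPM in the biliary cells against 601 and 571 in the hepatocytes. The groups overlapped on the TPM scale, and after scaling by size factors the log2 fold change was 0.92 (adjusted p = 0.0486 in limma). Ndufv1, the core subunit that binds NADH and the flavin (chromosome 19, 4007499 to 4012755), had 111 and 115 TPM in the biliary cells against 102 and 130 in the hepatocytes, with a log2 fold change after median-of-ratios scaling of 0.83 (adjusted p = 0.0444). Ndufb11, on chromosome X, and Ndufa13, also known as GRIM-19, stood at 0.74 and 0.56 on that scale (adjusted p = 0.0392 and 0.0479 in limma). All 5 lost the call on that scale when any of the 4 libraries was left out, with adjusted p from 0.0628 to 0.101 for Ndufa1 and from 0.108 to 0.212 for Ndufa13. With clone as a replicate block Ndufa13 did not pass (adjusted p = 0.0521), while Ndufb4 (0.91) and Ndufb9 (0.75), which missed the threshold without it (0.0521 and 0.0506), passed at 0.0416 and 0.0336. Exons of Ndufa13 overlap Tssk6 and those of Ndufb11 overlap Rbm10 on the opposite strand, and those of Ndufb9 overlap Gm49356 on the same strand. Strand use in counting is not given in the sources used here, so all 3 are uncertain. In all, exons of 26 members overlap another protein-coding gene, and their values carry the same limit.

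Ndufa7 and Ndufa12, supernumerary subunits of the hydrophilic arm, were at the other end of complex I. Ndufa7 had 518 and 504 TPM in the biliary cells against 251 and 270 in the hepatocytes (a log2 difference of -0.97 with an SE of 0.12, adjusted p = 0.00723 in limma). Every Hep_3D value lay below every Bil_2D value, and the call held without each library in turn (adjusted p up to 0.0474). With size factors applied Ndufa7 stood at -0.15 (adjusted p = 0.443) and Ndufa12 at -0.12 (0.529). Among the 7 core subunits 3 fell on the TPM scale (Ndufs1, Ndufs3 and Ndufs7) and 1 rose on the other (Ndufv1). Ndufs1, which carries iron-sulfur clusters, went from 59.3 and 49.7 TPM in Bil_2D to 36.4 and 36.2 in Hep_3D (adjusted p = 0.0322, up to 0.142 with a library left out). After scaling it turned to 0.23 (adjusted p = 0.274), with both Hep_3D libraries above both Bil_2D libraries, and its exons overlap Eef1b2 on the opposite strand.

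**Figure D3:**
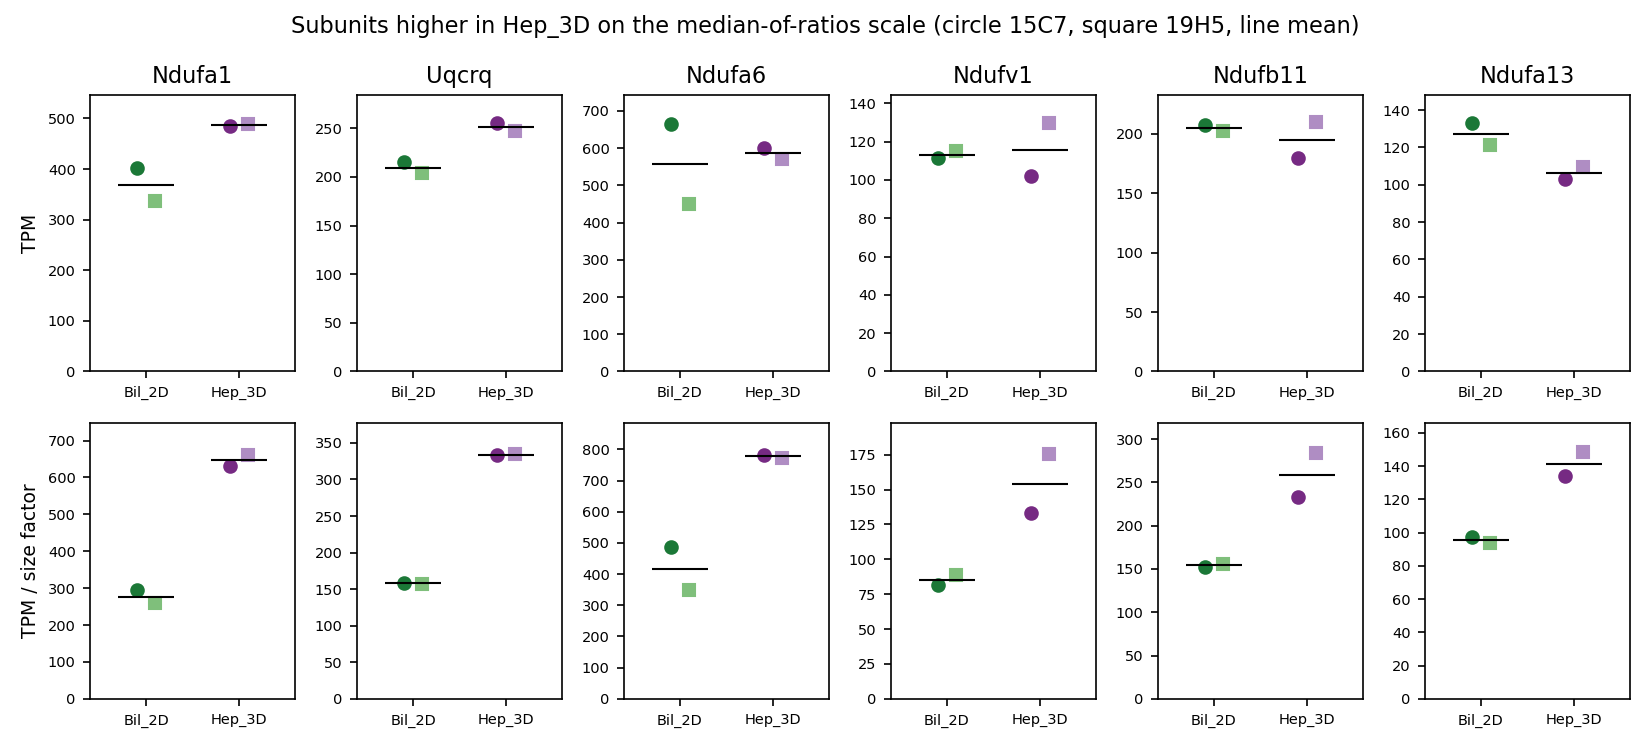
Values in each library of the 6 subunits that passed limma's test upward after scaling by size factors, as TPM (top) and as TPM divided by the size factor (bottom), with lines at the group means and axes from 0. On the bottom row both Hep_3D libraries lie above both Bil_2D libraries for all 6, and on the top row this holds for Ndufa1 (485 and 488 against 401 and 336 TPM) and Uqcrq.

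Complex II, the succinate dehydrogenase shared with the citric acid cycle, has 4 subunits, all nuclear. All were lower in both Hep_3D libraries on the TPM scale, as were 71.9% of all genes, and 2 of 4 fell. The iron-sulfur subunit Sdhb had 164 and 156 TPM in the biliary cells against 117 and 106 in the hepatocytes (log2 fold change -0.52, adjusted p = 0.0260 in limma). The membrane anchor Sdhd had 303 and 271 against 196 and 219 TPM (adjusted p = 0.0444, and 0.0560 with the replicate block). Both calls were lost with a library left out (adjusted p up to 0.118 and 0.176). The flavoprotein Sdha had 267 and 191 against 162 and 131 TPM and missed the threshold (adjusted p = 0.0687), passing at 0.0199 with the replicate block. After median-of-ratios scaling the 4 stood between 0.18 and 0.50 and none passed (for Sdhc, the other anchor, 0.50 with an adjusted p of 0.0990).

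In complex III, 3 of 9 members fell on the TPM scale and 1 rose with size factors applied. The shares were 33.3% and 11.1%, against 51.9% and 11.9% of all genes. Uqcrq, a small accessory subunit (chromosome 11, 53427922 to 53430831), had 216 and 204 TPM in the biliary cells against 256 and 247 in the hepatocytes. Its replicates were close and the groups did not overlap on either scale. The log2 fold change was 0.26 on the TPM scale (SE 0.12, adjusted p = 0.120 in limma) and 1.08 after scaling by size factors (SE 0.12, adjusted p = 0.0120, and 0.0592 to 0.0988 with a library left out). Uqcrq was 4.48% and 5.12% of complex III TPM in Bil_2D and 7.89% and 8.30% in Hep_3D. On the TPM scale the core protein Uqcrc1, the cytochrome c1 gene Cyc1 and the small subunit Uqcr10 fell by 0.76, 0.65 and 0.67 (adjusted p = 0.0145, 0.0474 and 0.0193), each lost with a library left out (up to 0.0763, 0.179 and 0.0915). After scaling the 3 turned, to 0.06, 0.16 and 0.14. All 9 members of the complex then stood above 0, against 48.6% of all genes. Uqcr11 and Uqcr10 were the most abundant members of the complex, with Uqcr11 at 1121 and 971 TPM in the biliary cells against 786 and 778 in the hepatocytes.

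Cycs, the somatic cytochrome c that carries electrons from complex III to complex IV and triggers apoptosis when released, had 116 and 107 TPM in the biliary cells against 54.9 and 57.6 in the hepatocytes. This level was low for the chain, and the groups were well apart. The log2 fold change was -0.97 (SE 0.12, adjusted p = 0.00733 in limma), and the call held without each library in turn (up to 0.0494). After median-of-ratios scaling it was -0.17 (adjusted p = 0.378). GENCODE M21 lists 3 processed pseudogene copies of Cycs at 95% identity or more over at least 150 bases, so its value is uncertain. In all, 23 members have such a copy, among them Atp5l (8), Atp5h (4), Cox7c and Uqcrb (3 each), Uqcr11 and Atp5g2 (2 each), and Ndufa12, Ndufb4, Ndufb11, Ndufs5, Cox7a2l, Atp5g1 and Atp5k (1 each), and their values carry the same limit.

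Complex IV held both the most abundant members and the isoforms. Cox6a1 had 2020 and 1751 TPM in the biliary cells against 1430 and 1524 in the hepatocytes, and Cox7c had 2173 and 1376 against 1326 and 947 TPM. Neither passed on either scale (adjusted p = 0.119 and 0.146 on the TPM scale, and 0.0315 for Cox7c with the replicate block). Cox5a, a small subunit on the matrix side, stood out on the lower side, with 737 and 640 TPM in the biliary cells against 303 and 331 in the hepatocytes. Its log2 fold change was -1.12 (SE 0.14, adjusted p = 0.00737 in limma, up to 0.0459 with a library left out) and -0.30 with size factors applied (adjusted p = 0.207). In all, 8 of 15 members tested in complex IV fell on the TPM scale and 1, Cox6a2, rose. After scaling by size factors 0 passed in limma, and 10 of the 15 (66.7%) lay above 0, against 48.6% of all genes.

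The isoforms that mark other tissues were scarce. Cox4i1, the general form of subunit 4, had 1313 and 1253 TPM in the biliary cells against 767 and 768 in the hepatocytes, while the oxygen-sensitive form Cox4i2 was at 0.523 and 0.312 against 0.159 and 0.142 TPM and made up at most 0.0398% of the pair. Cox6a2, the heart and skeletal muscle form of subunit 6a, was listed at 0 in both Bil_2D libraries and at 1.12 and 4.32 TPM in Hep_3D. It rose on the TPM scale (adjusted p = 0.0411 in limma, up to 0.138 with a library left out) and did not pass after median-of-ratios scaling (0.0683), and its exons overlap Itgad on the opposite strand. Because it was at 0 in Bil_2D, it passed the filter only through Hep_3D, and only a rise could be called. It was at most 0.282% of Cox6a transcripts. Cidea, a brown fat gene of the muscle and brown fat markers (which summed to 13.2 and 1.32 TPM in the biliary cells against 7.39 and 2.52 in the hepatocytes), was also listed at 0 in Bil_2D and at 5.81 and 1.32 TPM in Hep_3D, while Ucp1 was at 0 in all libraries and Myh7 at 0.0243 TPM or below. These markers were mixed: of the 2 that were tested, Cidea stood at 1.99 on the TPM scale and the other at -1.47. Ndufa4l2, a hypoxia-responsive paralog of Ndufa4, had 2.31 TPM in Hep_3D replicate 1 and was listed at 0 elsewhere, and its exons overlap Shmt2 on the opposite strand. Cox8b had 0.696 TPM in the same library and was listed at 0 elsewhere, and the testis forms Cox7b2 and Cox8c were listed at 0 in all 4 libraries.

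Cox7a1, the muscle and brown fat form of subunit 7a, was the isoform with a sizeable level. It had 44.2 and 45.5 TPM in the biliary cells against 15.6 and 20.3 in the hepatocytes, and the groups did not overlap on either scale. It fell by 1.29 on the TPM scale (SE 0.18, adjusted p = 0.00812 in limma, up to 0.0537 with a library left out), and stood at -0.50 with size factors applied (adjusted p = 0.141). Of the summed TPM of Cox7a1, the general form Cox7a2 and the supercomplex factor Cox7a2l, Cox7a1 held 7.10% and 8.02% in Bil_2D and 3.76% and 5.05% in Hep_3D (exact permutation p = 0.33). Cox7a2l held 33.1% and 40.4% against 43.5% and 43.3%. Cox6b2, the testis form of subunit 6b, differed by clone: 37.8 TPM in 15C7 and 2.93 in 19H5 among Bil_2D, and 4.81 and 0.226 in Hep_3D. The groups overlapped, and its log2 fold change of -2.21 did not pass (adjusted p = 0.224). With clone as a replicate block it passed on both scales (adjusted p = 0.0144 on the TPM scale and 0.0313 after scaling by size factors, where the fold change was -1.65).

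**Figure D4:**
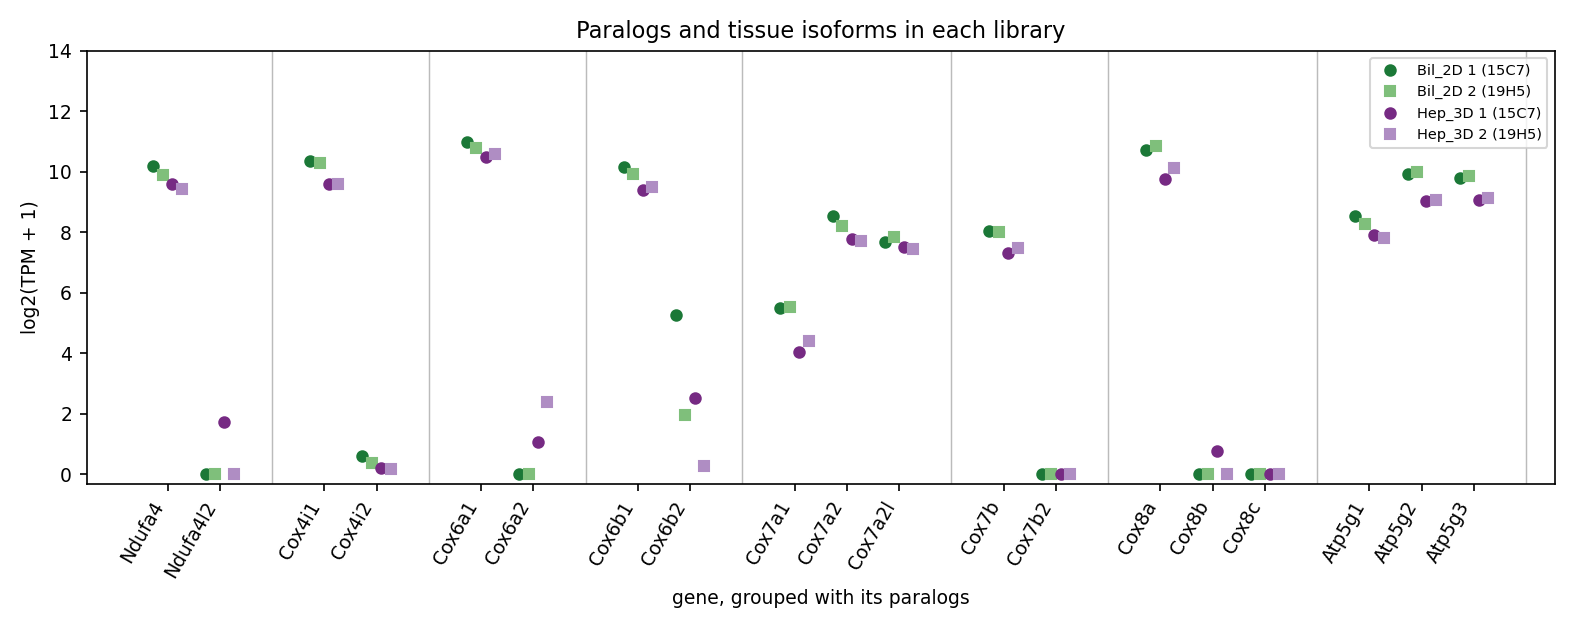
Level of each gene of 8 groups of paralogs as log2(TPM + 1), 1 point per library (circles 15C7, squares 19H5). The general forms are abundant in all libraries, Cox7a1 is lower in Hep_3D (15.6 and 20.3 against 44.2 and 45.5 TPM), and Cox6b2 is set apart by clone. Cox7b2 and Cox8c lie at 0, and Cox4i2 and Cox8b below 1 TPM. Cox6a2 is at 0 in Bil_2D and at 1.12 and 4.32 TPM in Hep_3D. Ndufa4l2 has 2.31 TPM in Hep_3D replicate 1 and is at 0 elsewhere.

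Complex V had 13 of 16 members lower on the TPM scale and 0 passing in limma after median-of-ratios scaling (0 higher and 0 lower), with medians of -0.69 and 0.12. Atp5b, the catalytic beta subunit, had 1522 and 1378 TPM in the biliary cells against 659 and 682 in the hepatocytes. The groups lay far apart relative to the replicates. Its log2 fold change was -1.11 (SE 0.14, adjusted p = 0.00707 in limma, up to 0.0452 with a library left out), and -0.29 with size factors applied (adjusted p = 0.210). Atp5b was 12.7% and 12.3% of complex V TPM in Bil_2D and 9.67% and 9.56% in Hep_3D. Atp5k, subunit e of the membrane part, had 1568 and 1557 TPM in the biliary cells against 716 and 839 in the hepatocytes (adjusted p = 0.00908, up to 0.0536 with a library left out). Atp5e, the epsilon subunit of the central stalk, was high in every library (1442 and 1242 against 1045 and 941 TPM) and did not pass (adjusted p = 0.0740). Factor B, encoded by Atp5s, was low, at 9.74 and 11.6 against 6.93 and 9.0 TPM.

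The rotating ring of subunit c is encoded by Atp5g1, Atp5g2 and Atp5g3, whose mature proteins are the same and whose import signals differ. All 3 fell on the TPM scale, by 0.54, 0.91 and 0.74 (adjusted p = 0.0362, 0.00812 and 0.0117 in limma, up to 0.139, 0.0515 and 0.0636 with a library left out), and stood at 0.27, -0.09 and 0.08 after scaling by size factors. The mix of the 3 was similar in all libraries. Atp5g1 held 16.5% and 13.7% of their TPM in Bil_2D and 18.4% and 17.1% in Hep_3D, and Atp5g2 held 43.6% and 45.0% against 40.5% and 40.7% (exact permutation p = 0.33 for each). Atp5g3 held 39.8% and 41.3% against 41.1% and 42.2%, which overlapped. Atp5l, a membrane subunit with the most pseudogene copies of any member, lost its call with the replicate block (adjusted p = 0.0547).

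Assembly factors of complex I are not part of the finished enzyme. Of the 8 in the set, Ndufaf1, Ndufaf2, Ndufaf5 and Ndufaf7 fell on the TPM scale and 0 passed on the other scale in limma. Ndufaf5, a hydroxylase that acts on Ndufs7, fell by 0.95, from 5.6 and 5.75 TPM to 2.80 and 2.13 (adjusted p = 0.0204 in limma, up to 0.0915 with a library left out). Ndufaf1, which joins an early membrane-arm intermediate, fell by 0.77, from 24.6 and 22.2 TPM to 13.1 and 13.5 (adjusted p = 0.0153, up to 0.0897). Ndufaf8, the most abundant of the 8, had 79.0 and 66.3 against 55.6 and 63.7 TPM and did not pass (adjusted p = 0.192). Ndufaf4 passed with the replicate block (adjusted p = 0.0464) and not without it (0.0798), and Ndufaf3 and Ndufaf6 did not pass either way.

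Promoter sequences from RefSeq (build GRCm38.p6, 250 bases before to 50 after each annotated start) were found for 77 of the 94 members. Binding motifs of the factors best known for respiratory genes were searched on both strands. The NRF1 motif (GCGCA, any base, GCGC) occurred in 19 of 77 members, or 24.4% of their 82 promoters, against 4.6% of all 32851 promoters of that length. The GABP and ETS motif CCGGAAG occurred in 22.0% against 8.86%, the YY1 motif AAGATGGC in 13.4% against 2.75%, and the estrogen-related receptor motif CAAGGTCA in 4.88% against 1.56%. The median promoter of a member held 20 CpG dinucleotides, against 7 over all promoters, and NRF1 and ETS motifs contain CpG, so these shares are not independent of base composition. Members with the NRF1 motif stood on both sides of 0, as with Ndufb4 (0.91 after median-of-ratios scaling) and Atp5k (-0.19). A match describes letters in a window and not a bound site.

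The 250 bases before the start are shown for 4 members with motifs and for Ndufa1, which had none of the 4 motifs in its window. They are read 5′ to 3′ toward the start, with motif matches in capitals, and cover the most abundant complex IV gene, a complex I gene with 3 NRF1 matches, and 2 complex V genes that fell on the TPM scale.
Cox6a1, chr5:115348959-115349208, minus strand: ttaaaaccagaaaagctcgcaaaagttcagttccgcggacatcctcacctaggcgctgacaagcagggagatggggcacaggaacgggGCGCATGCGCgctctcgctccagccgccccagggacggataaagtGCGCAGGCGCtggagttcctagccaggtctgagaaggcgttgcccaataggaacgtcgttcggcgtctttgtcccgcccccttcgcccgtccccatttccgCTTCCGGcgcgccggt
Ndufb4, chr16:37654369-37654618, minus strand: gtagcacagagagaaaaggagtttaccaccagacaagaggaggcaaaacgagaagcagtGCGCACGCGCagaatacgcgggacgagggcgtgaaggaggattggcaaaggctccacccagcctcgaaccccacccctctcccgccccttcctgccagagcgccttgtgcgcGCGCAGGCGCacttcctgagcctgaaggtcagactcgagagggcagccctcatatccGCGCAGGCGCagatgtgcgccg
Atp5k, chr5:108434400-108434649, minus strand: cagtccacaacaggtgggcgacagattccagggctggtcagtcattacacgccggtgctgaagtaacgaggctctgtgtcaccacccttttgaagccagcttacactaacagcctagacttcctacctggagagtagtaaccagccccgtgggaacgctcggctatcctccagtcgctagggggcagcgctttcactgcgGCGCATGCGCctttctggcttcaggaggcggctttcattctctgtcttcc
Atp5g2, chr15:102671048-102671297, minus strand: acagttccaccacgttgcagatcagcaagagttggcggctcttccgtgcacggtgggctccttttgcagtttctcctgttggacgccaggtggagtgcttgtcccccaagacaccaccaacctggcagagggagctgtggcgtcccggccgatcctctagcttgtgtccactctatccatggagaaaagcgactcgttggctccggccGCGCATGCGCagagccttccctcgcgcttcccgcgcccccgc
Ndufa1, chrX:37191239-37191488, minus strand: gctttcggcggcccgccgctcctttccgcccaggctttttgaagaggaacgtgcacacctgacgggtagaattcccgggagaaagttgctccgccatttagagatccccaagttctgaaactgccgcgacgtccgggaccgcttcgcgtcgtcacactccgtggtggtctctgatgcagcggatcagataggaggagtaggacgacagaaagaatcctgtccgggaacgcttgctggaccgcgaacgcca
Ndufb4 held 3 NRF1 matches, Cox6a1 held 2 with a GABP and ETS match, and Atp5k and Atp5g2 held 1 NRF1 match each. Atp5k also held a GABP and ETS match past the annotated start, outside the stretch shown.

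Transcription regulators of these genes had medians of -0.67 on the TPM scale and 0.13 after scaling. Of 14 tested, 7 fell and 0 rose on the TPM scale and 0 passed in limma with size factors applied. The 50% that fell were near the 51.9% of all genes. Esrra, an orphan nuclear receptor of mitochondrial genes, had 113 and 112 TPM in the biliary cells against 48.4 and 66.6 in the hepatocytes (log2 fold changes -0.97 and -0.17 on the 2 scales). Nrf1 had 13.2 and 12.6 against 7.13 and 5.45 TPM (-0.94 and -0.21), and Pprc1, a coactivator of the PGC-1 family, 19.4 and 23.3 against 9.68 and 7.83 TPM (-1.20 and -0.44). Gabpa, Yy1, Twnk (the mitochondrial helicase) and Polg (the mitochondrial DNA polymerase) were the others that fell on the TPM scale. The 7 had adjusted p from 0.0104 to 0.0253, and each lost the call with a library left out (up to 0.0642 for Pprc1 and 0.126 for Gabpa). Ppargc1a, the inducible PGC-1 coactivator, was low, with 6.01 and 2.55 against 1.51 and 1.69 TPM, and did not pass (adjusted p = 0.0970). Tfam, which packs mitochondrial DNA, had 16 and 16.2 against 12.5 and 12.9 TPM (-0.32 and 0.45), and Tfb1m was the regulator with the highest value after scaling by size factors (0.93, adjusted p = 0.0580). Gabpb1, Polrmt, Polg2 and Tfb2m did not pass on either scale, and Ppargc1b was at 0.875 TPM or below. With the replicate block Polrmt also fell on the TPM scale (adjusted p = 0.0412).

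Enzymes of the citric acid cycle supply the chain with NADH and succinate. Among 16 citric acid cycle and pyruvate dehydrogenase genes 11 fell (68.75%, against 51.9% of all genes) and 0 rose on the TPM scale. After median-of-ratios scaling 3 fell and 1 rose (18.75% and 6.25%, against 9.54% and 11.9% of all genes). Cs (citrate synthase) had 185 and 182 TPM in the biliary cells against 47.2 and 53.4 in the hepatocytes, for log2 fold changes of -1.85 (TPM) and -1.04 (scaled) (adjusted p = 0.00427 and 0.0176 in limma). Idh3a and Pdha1, subunits of isocitrate dehydrogenase and of pyruvate dehydrogenase, were lower on both scales too (-1.80 and -1.0 for Idh3a, -1.52 and -0.71 for Pdha1). The TPM-scale calls of these 3 held without each library (up to 0.0421), and the median-of-ratios calls did not (up to 0.129, 0.139 and 0.177). Suclg1, named after its value was seen, was the 1 that rose on that scale (0.75, lost with a library left out, up to 0.210). With the replicate block both Pdha1 and Suclg1 missed there (adjusted p = 0.0512 for each) and Mdh2 was lower (0.0423).

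Of 7 other genes whose products pass electrons to ubiquinone, 2 rose and 2 fell on the TPM scale and 5 rose and 1 fell with size factors applied. Sqor, the sulfide oxidoreductase, had 34.0 and 28.3 TPM in the biliary cells against 85.4 and 83.6 in the hepatocytes (log2 fold changes 1.42 and 2.22, adjusted p = 0.00593 and 0.00368 in limma). Prodh, which oxidises proline, rose by 0.65 and 1.37 on the 2 scales. Gpd2, the glycerol phosphate shuttle enzyme, had 21.4 and 25.8 TPM in the biliary cells against 4.47 and 5.28 in the hepatocytes, the reverse of Sqor (-2.06 and -1.32, adjusted p = 0.00533 and 0.0234). The electron transfer flavoprotein genes Etfa, Etfb and Etfdh, which serve fatty acid oxidation and were named after their values were seen, stood at 0.92, 1.05 and 0.94 after scaling by size factors, and Dhodh was the other that fell on the TPM scale (-0.97). On the TPM scale the calls of Sqor and Gpd2 held without each library (up to 0.0448) and that of Prodh did not (up to 0.124). After median-of-ratios scaling the calls of these 3 were lost with at least 1 library left out (up to 0.0528 for Sqor, 0.151 for Gpd2 and 0.114 for Prodh), as were those of Etfa, Etfb and Etfdh (0.122, 0.111 and 0.163). In ubiquinone synthesis, 1 of 13 genes rose and 7 fell on the TPM scale and 1 rose and 1 fell on the other. Coq8a, a kinase-like factor of that pathway, had 1.27 and 0.521 TPM in the biliary cells against 20.9 and 22.4 in the hepatocytes (3.61 and 4.18). Its call held without each library on both scales (adjusted p up to 0.0364 and 0.0416). Pdss1, which starts the ubiquinone tail, fell on both (-1.91 and -1.21), and its second call was lost with a library left out (up to 0.159).

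Assembly factors outside the set also had calls that differed between the scales. On the TPM scale 7 of 11 fell for complex I, 1 of 4 for complex II (Sdhaf2), 2 of 6 for complex III (Uqcc1 and Uqcc2), 14 of 23 for complex IV and 4 of 4 for complex V with its inhibitor (Atpaf1, Atpaf2, Tmem70 and Atpif1). After scaling by size factors 0 of these fell and 3 rose in limma, Dmac2 for complex I (1.19) and Sdhaf1 and Sdhaf3 for complex II (0.62 and 0.92), named after their values were seen and lost with a library left out (up to 0.178, 0.211 and 0.151). Medians on that scale were 0.20, 0.42, 0.26, 0.05 and -0.19 for complexes I to V. Of the 4 complex V genes 0 were above 0 there, against 48.6% of all genes. All 6 tested carrier and porin genes for adenine nucleotides, phosphate and small solutes fell on the TPM scale, with a median of -1.08 (-0.26 on the other scale, 0 passing in limma).

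Genes of mitochondrial import and cristae fell in 18 of 22 cases on the TPM scale, and 2 (Chchd3 and Timm17b) rose and 1 fell after median-of-ratios scaling. The 1 that fell on both, Tomm40 (the outer membrane import channel), had 136 and 152 TPM in the biliary cells against 51.4 and 48.1 in the hepatocytes. Its log2 fold changes were -1.51 and -0.71, and the second lost its call with a library left out (adjusted p up to 0.178). Ribosomal protein genes give a further group of short, abundant transcripts. Of 78 mitochondrial ribosome genes 62 fell on the TPM scale (median -0.72) and 3 (Mrpl2, Mrpl50 and Mrps31) rose with size factors applied (median 0.08). Of 79 cytosolic ribosome genes tested 77 fell (median -1.01), and 1, Rpsa, fell after scaling by size factors (median -0.20, and 0 with the replicate block). The respiratory members, at -0.56 and 0.25, lay above both in these medians, a difference that was not tested. Of the hypoxia targets, 2 of 7 fell on the TPM scale and 0 passed on the other in limma. The 2 were Slc2a1 and Adm, and with the replicate block Bnip3 and Vegfa were higher and Egln3 lower after scaling (adjusted p = 0.0272, 0.0426 and 0.0403).

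The clones differed little in most members. After median-of-ratios scaling the difference between 15C7 and 19H5 was 0.5 log2 units or more in 4 of 89 members in Bil_2D and 5 in Hep_3D. These were 4.49% and 5.62%, against 18.2% and 23.9% of all genes. The shares are not matched for level: genes tested reach down to 1 TPM in 2 libraries, while 65 of 76 subunit genes were at 100 TPM or more in every library. Both clones moved in the same direction on the TPM scale for 85 of 89 members, and 82 were lower in Hep_3D in both. With size factors applied 61 were higher in Hep_3D in both clones and 11 lower in both. The same counts over all genes were not computed. On the TPM scale 71.9% of all genes had both Hep_3D libraries below both Bil_2D libraries, so clones that agreed in this direction were common. With size factors applied 33.6% of all genes lay above in this way and 34.7% below. Ndufs5, an intermembrane-space subunit of complex I, was the subunit most set apart by clone: 377 TPM in 15C7 and 155 in 19H5 among Bil_2D, and 254 and 152 in Hep_3D. Its groups overlapped, and no difference between them passed (adjusted p = 0.638 on the TPM scale). Cox7c was higher in 15C7 in both states as well, and Ndufaf6 differed in Hep_3D (9.18 TPM in 15C7 and 5.55 in 19H5) but not in that direction in Bil_2D (10.3 and 11.4). These differences between the clones were not tested.

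**Figure D5:**
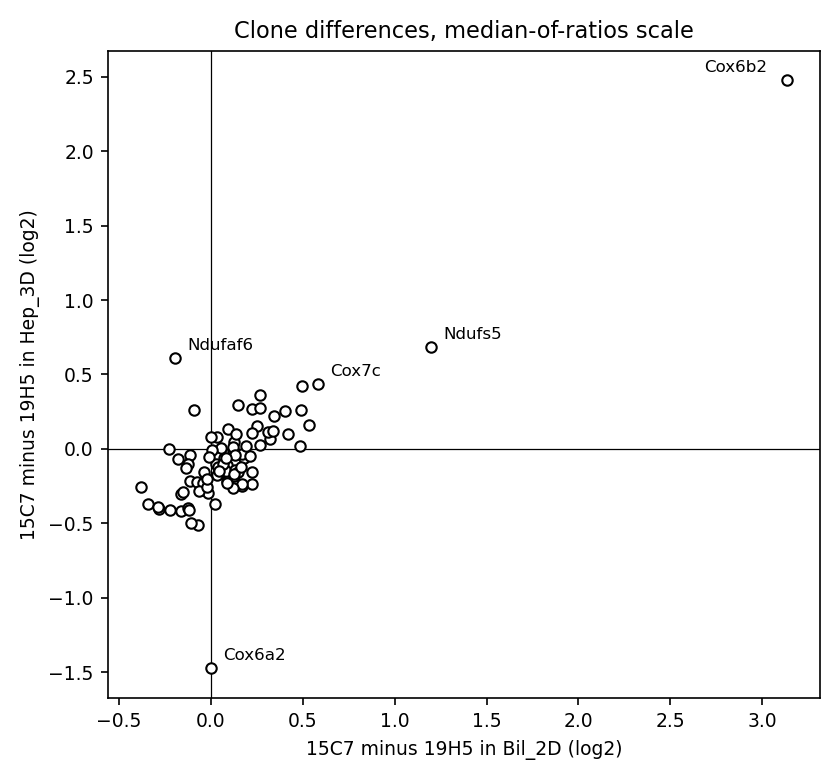
Difference between the clones (15C7 minus 19H5, log2 of value + 1 after scaling by size factors) in Bil_2D on the horizontal axis and in Hep_3D on the vertical axis, 1 point for each of the 89 members tested. Most points lie within 0.5 of 0 on both axes, Cox6b2 and Ndufs5 are higher in 15C7 in both states, and Cox6a2 lies on the vertical axis because it is listed at 0 in both Bil_2D libraries.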

How the data were processed

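RNA from 4 cultures was sequenced. The authors deposited gene TPM (length-corrected shares of a library) for 24493 symbols. Salmon, DESeq2 and the build mm10 are listed, per the submitters' processing notes, without versions. The annotation and the role of DESeq2 are not given in the sources used here. Depth and counting error were unknown.

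The 12336 genes that reached 1 TPM in 2 or more libraries entered limma 3.58.1 as log2(TPM + 1) (R 4.3.3, lmFit, eBayes with a trend, 2 residual degrees of freedom, a prior of 2.29). The fit was checked on simulated data with independent noise and few changed genes. That check did not cover shared clones or a shift of most genes. The second scale divided TPM by size factors, the median ratio to the geometric mean of the libraries across 10434 genes at 1 TPM or more in every library (1.36, 1.29, 0.767 and 0.740 for Bil_2D and Hep_3D replicates 1 and 2). Same-clone libraries share a clone number in the labels, and their deviations from group means correlated at 0.414 across genes. Clone as a replicate block was an alternative. Named members were paralogs and isoforms, members called on the median-of-ratios scale, the 2 most abundant of each complex, members listed at 0 or untested, and assembly factors. Ndufa7, Ndufa12, Ndufs1, Ndufs3, Ndufs5, Ndufs7, Ndufb4, Ndufb9, Sdha, Sdhb, Uqcrc1, Cyc1, Cox5a, Atp5b and Atp5l were added after their values were seen, as were genes of other lists outside the rule below. Where a library was left out, the lone library of its group was assumed to vary like the other group. Other lists give at most 4 genes called on both scales, and all regulators. Members and lists were chosen with earlier results of these data known. Positions come from RefSeq (GRCm38.p6, the mm10 assembly, 94 of 94 symbols matched, 2 by an older symbol), promoters from the same build. Pseudogene copies were counted with BLAST 2.17.0 against GENCODE M21.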

Additional observations from a re-analysis of the deposited data

How the results depend on the processing

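The TPM-scale count of members that fell (47) went to 0 with median-of-ratios scaling, 2 with quantile normalization and 0 without the 50 most abundant genes, and to between 5 and 17 with each library left out. The count of members that rose (1) went to 6, 2 and 2 under these scalings, and was no larger with a library left out. It went to 0 with a pseudocount of 5, without the filter or with a filter of 5 TPM. Over all genes the count that rose (839) went to 1465, 1350 and 1133, and then to 823, 753 (of 18606) and 722 (of 9878). On the median-of-ratios scale the count of members that rose (6) went to 2 without the filter and 2 without a trend in eBayes. With a library left out it was smaller. Over all genes the count that rose (1465) went to 959 (of 18606) without the filter and 1359 without a trend. The count of members that fell (0) became 1 with clone as a replicate block (Cox6b2). That block gave 56 members lower and 1 higher on the TPM scale and 7 higher on the other. Of the members called without it, 45 of the 47 and 5 of the 6 kept their calls. Over all genes it gave 7172 lower and 978 higher on the TPM scale, and 1745 higher and 1449 lower on the other. Members that fell in all 4 runs with a library left out were Atp5b, Cox5a, Cycs and Ndufa7. Of 7 shares within paralog groups, all kept their direction with a library left out except the Cox6b2 share of its paralog group (from -1.37 points to between -2.82 and 0.0738) and the Cox7a2 share of its paralog group (from -3.52 points to between -7.60 and 0.562), both turned without Bil_2D replicate 1.

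Named members whose TPM-scale log2 fold change turned sign, with the new value, were under median-of-ratios scaling Atp5e 0.39, Atp5g1 0.27, Atp5g3 0.076, Atp5l 0.35, Atp5s 0.35, Cox4i1 0.078, Cox6a1 0.47, Cox6b1 0.21, Cox7a2 0.18, Cox7a2l 0.52, Cox7b 0.20, Cox7c 0.19, Cyc1 0.16, Ndufa13 0.56, Ndufa3 0.020, Ndufa4 0.29, Ndufaf1 0.0056, Ndufaf2 0.35, Ndufaf3 0.39, Ndufaf4 0.12, Ndufaf6 0.19, Ndufaf8 0.53, Ndufb11 0.74, Ndufb9 0.75, Ndufs1 0.23, Ndufs3 0.24, Ndufs5 0.51, Ndufs7 0.094, Sdha 0.18, Sdhb 0.29, Sdhc 0.50, Sdhd 0.35, Uqcr10 0.14, Uqcr11 0.40 and Uqcrc1 0.058. Under quantile normalization they were Atp5g1 0.021, Atp5s 0.27, Cox6a1 0.0025, Cox7a2l 0.29, Ndufa13 0.37, Ndufaf2 0.23, Ndufaf3 0.30, Ndufaf4 0.032, Ndufaf6 0.11, Ndufaf8 0.39, Ndufb11 0.51, Ndufb9 0.38, Ndufs1 0.10, Ndufs3 0.049, Ndufs5 0.29, Sdhb 0.10, Sdhc 0.27 and Sdhd 0.090, and without the 50 most abundant genes Atp5e 0.12, Atp5g1 0.0080, Atp5l 0.084, Atp5s 0.12, Cox6a1 0.20, Cox7a2l 0.26, Ndufa13 0.29, Ndufa4 0.022, Ndufaf2 0.091, Ndufaf3 0.14, Ndufaf8 0.27, Ndufb11 0.47, Ndufb9 0.48, Ndufs5 0.25, Sdhb 0.030, Sdhc 0.24, Sdhd 0.085 and Uqcr11 0.14. With a library left out, values that turned sign on the TPM scale ranged over Ndufa6 -0.18 to 0.38, Ndufb11 -0.19 to 0.035, Ndufb4 -0.14 to 0.32, Ndufb9 -0.23 to 0.091, Ndufs5 -0.94 to 0.34 and Ndufv1 -0.15 to 0.20. With a library left out, values that turned sign on the median-of-ratios scale ranged over Cox7c -0.10 to 0.48, Cox8a -0.22 to 0.19, Ndufa3 -0.10 to 0.14, Ndufaf1 -0.039 to 0.050, Ndufaf4 -0.094 to 0.32, Ndufaf6 -0.11 to 0.50, Ndufaf7 -0.26 to 0.12, Ndufs5 -0.084 to 1.11, Ndufs7 -0.092 to 0.28, Sdha -0.021 to 0.38 and Uqcrc1 -0.090 to 0.21. On the median-of-ratios scale, 75th percentile scaling turned Ndufa3 -0.051, Ndufaf1 -0.062 and Uqcrc1 -0.013, and size factors over genes at 10 TPM or more turned Ndufa3 -0.0092 and Ndufaf1 -0.022. No named member turned sign under either pseudocount, either filter, the 2 eBayes options or the replicate block. TPM keep no depth, so no counting error is given.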
